A study of Homo sapiens with 12 samples.

Results

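The genes described here are 9 targets of the transcription factor p53 that are not known as targets of ATF4, the transcription factor of the integrated stress response (ISR): *MDM2*, *ZMAT3*, *FDXR*, *PHLDA3*, *XPC*, *TP53I3*, *TP53INP1*, *AEN* and *BTG2*. They were taken by symbol from the 43236 gene symbols of the count data, and all 9 were among the 15979 genes with enough counts to be tested. The cells are MNNG/HOS, a single human osteosarcoma line obtained by chemical transformation of HOS cells, and every group shares that background. DMSO, the solvent, or 300 nM NXP800 was given for 6 h or for 24 h, with 3 libraries in each of the 4 groups, 12 in all. NXP800 is an orally available compound from work on inhibitors of the HSF1 heat shock pathway. The question put to the data is whether p53 targets outside the ISR moved with the compound, at 6 h, at 24 h, or differently at the 2 times.

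p53 binds a pair of similar short DNA half-sites and raises the transcription of genes that halt the cell cycle, repair DNA, change metabolism or start cell death. One of its targets, *MDM2*, encodes the ubiquitin ligase that marks p53 for degradation, so that the pathway limits itself. In the ISR, kinases such as GCN2 phosphorylate eIF2α, general translation falls, and ATF4 is made and acts on genes of amino acid supply and cell death. Several well-known p53 targets, *CDKN1A* among them, are also raised in the ISR, and their mRNA alone cannot tell which pathway acted.

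Counts assigned to genes lay between 30810614 and 31947656 per library. Expression is on the CPM scale, gene counts relative to library size, with TMM scaling to correct for library composition. Read pairs on no annotated gene made up 6.66% to 8.14% of the 6 h libraries and 2.73% to 3.67% of the 24 h libraries, so the time points also differ as library sets. Of the markers of a mesenchymal and osteoblast line, *VIM* lay between 3338 and 5891 CPM, *COL1A1* between 143 and 566 CPM and *RUNX2* between 20.7 and 42.5 CPM, while *COL1A2* reached 0.378 CPM at most. The leukocyte gene *PTPRC* and the epithelial gene *CDH1* did not exceed 0.154 and 0.0673 CPM. In bulk RNA, a change in some of the cells and a smaller change in all of them cannot be told apart. The study describes its repeats in general as independent experiments, but neither the labels nor the sequencing methods say whether the replicate libraries came from separate cultures. If they did not, the p-values measure only technical spread. Each adjusted p comes from the quasi-likelihood test of edgeR, corrected by the Benjamini-Hochberg method over the 15979 tested genes, and "rose" or "fell" means an adjusted p below 0.05.

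Promoter windows, the 250 bases before an annotated RefSeq transcription start in GRCh38.p14, were at hand for 7 of the 9 genes, all but *PHLDA3* and *TP53INP1*. They are shown for 4 genes that between them rose at both times, rose at 6 h, fell at both times, or carry the most complete p53 site. In the *MDM2* window the capitals mark a full p53 site, that is 2 adjoining half-sites of 10 bases, each allowed 1 mismatch, and it begins 94 bases before the start of an internal transcript. In the *AEN* and *FDXR* windows they mark a half-site with no mismatch. The *XPC* window has no capitals because no half-site was found in it, even with 1 mismatch.
MDM2, chr12:68808767-68809016, plus strand: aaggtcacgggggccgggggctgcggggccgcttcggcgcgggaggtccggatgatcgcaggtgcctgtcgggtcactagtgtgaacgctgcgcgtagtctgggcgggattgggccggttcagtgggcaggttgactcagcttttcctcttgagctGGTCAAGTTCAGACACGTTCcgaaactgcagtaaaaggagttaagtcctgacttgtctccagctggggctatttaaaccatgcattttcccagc
AEN, chr15:88621090-88621339, plus strand: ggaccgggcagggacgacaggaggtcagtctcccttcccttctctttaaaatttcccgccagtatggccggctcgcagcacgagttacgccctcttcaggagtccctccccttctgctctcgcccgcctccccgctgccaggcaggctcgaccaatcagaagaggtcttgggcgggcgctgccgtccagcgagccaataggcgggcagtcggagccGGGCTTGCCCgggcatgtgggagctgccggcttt
FDXR, chr17:74872995-74873244, minus strand: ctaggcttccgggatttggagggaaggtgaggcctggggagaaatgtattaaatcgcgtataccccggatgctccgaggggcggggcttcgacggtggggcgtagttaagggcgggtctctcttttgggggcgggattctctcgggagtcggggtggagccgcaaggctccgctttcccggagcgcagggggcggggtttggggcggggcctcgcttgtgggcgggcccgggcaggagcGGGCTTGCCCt
XPC, chr3:14178602-14178851, minus strand: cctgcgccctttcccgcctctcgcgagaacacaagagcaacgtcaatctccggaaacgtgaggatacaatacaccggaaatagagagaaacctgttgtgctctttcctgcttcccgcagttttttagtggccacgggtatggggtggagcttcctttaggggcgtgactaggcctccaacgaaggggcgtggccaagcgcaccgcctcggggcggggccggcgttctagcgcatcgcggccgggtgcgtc
The half-site of *AEN* begins 34 bases before a start that, like that of the *MDM2* window, lies inside the gene. That of *FDXR* begins 11 bases before the outermost start of the gene. Both are the same 10 letters, GGGCTTGCCC. A half-site with no mismatch, searched on both strands, was in the windows of these 2 of the 7 genes (28.6%) and of 1857 of 27305 genes in all (6.8%). With 1 mismatch allowed it was in 4 of the 7, adding *MDM2* and *ZMAT3*, and in 44.3% of all genes. The full site was in the window of 1 of the 7, *MDM2*, and of 48 genes in all (0.176%). Among 28 other p53 targets outside the ISR with a window, 5 (17.9%) had the half-site with no mismatch and 0 the full site. The C/EBP-ATF element, searched as TGATGNAA on both strands, was in none of the 7 and in 3.89% of all genes. It was in 3 of 10 ISR reference genes with a window, *ASNS*, *CHAC1* and *CEBPG*. Of the p53 targets also known in the ISR, 1 of 7 with a window had it, *ATF3*. A match here is a string of letters and not a measured binding site.

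The 9 genes did not move as a block. At 6 h, 4 rose (*MDM2*, *XPC*, *TP53INP1* and *AEN*), 2 fell (*ZMAT3* and *FDXR*) and 3 did not pass the test. Of all tested genes 52.8% passed at that time, 25% rising and 27.8% falling, so a call for 6 of 9 (66.7%) stands in a transcriptome where most genes moved. At 24 h, 5 rose (*ZMAT3*, *PHLDA3*, *XPC*, *TP53INP1* and *AEN*), *FDXR* alone fell and 3 did not pass, against 56% of all tested genes (27.5% rising, 28.6% falling). The median log2 fold change of the 9 was 0.096 at 6 h and 0.21 at 24 h, and that of all tested genes was -0.046 and -0.0033. Disregarding direction, their median size was 0.26 and 0.29 on the log2 scale, where all tested genes had 0.34 and 0.38. Rises over 2-fold were seen for 1 gene at 6 h (*TP53INP1*) and 2 at 24 h (*PHLDA3* and *TP53INP1*), with 6.02% and 6.73% of all tested genes rising that far. No member fell over 2-fold, where 5.23% and 7.32% of all tested genes did. At 6 h all treated libraries lay above all controls for the 4 genes that rose (29.3% of all tested genes) and below them for the 2 that fell (32.7%). At 24 h they lay above for 5, *TP53I3* in place of *ZMAT3*, and below for 1 (29% and 30.1% of all tested genes). *XPC*, *TP53INP1* and *AEN* rose at both times and *FDXR* fell at both, 4 of 9 in the same direction, where 35% of all tested genes were.

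**Figure D1:**
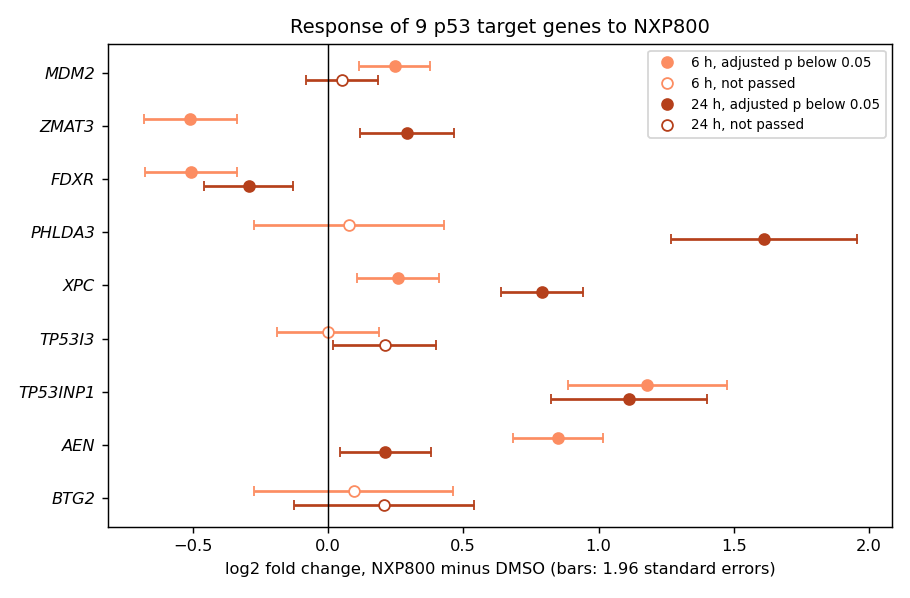
Log2 fold change of NXP800 against DMSO for the 9 genes at 6 h and 24 h from edgeR, with bars for the 95% interval and filled points where the adjusted p was below 0.05. *TP53INP1* lies above 1 at both times, *PHLDA3* at 24 h only, and *ZMAT3* lies at -0.51 at 6 h and 0.29 at 24 h.

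The 2 members that act on p53 itself come first. *MDM2* (chr12:68808172-68850686) had 52.3, 58.1 and 56.2 CPM in the DMSO libraries at 6 h and 65.5, 62.9 and 69.4 CPM in the NXP800 libraries. Every treated library was above every control. The log2 fold change was 0.25 (SE 0.067, adjusted p = 0.00534), a 1.19-fold rise, and 62% of tested genes changed by more. At 24 h the values were 52.2, 48.8 and 53.2 CPM with DMSO and 55.3, 54.4 and 50.2 CPM with NXP800, and the groups overlapped. The log2 fold change was then 0.053 (95% interval -0.080 to 0.18, adjusted p = 0.527), an interval that ends below the 6 h value. The 2 responses did not pass the test of their difference (-0.19, adjusted p = 0.148). Of the exon bases of *MDM2*, 14.7% are shared with other genes, among them the carboxypeptidase M gene on the opposite strand. The mean level of that gene was 8.62 CPM with DMSO and 15.5 CPM with NXP800 at 6 h, and 6.78 and 3.88 CPM at 24 h, and its part in the *MDM2* counts was not tested.

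*TP53INP1*, on chromosome 8, encodes a stress protein that promotes p53 phosphorylation and also takes part in autophagy. It was among the least abundant members, with 60, 78 and 71 counts in the DMSO libraries at 6 h and 156, 152 and 174 counts in the NXP800 libraries. These counts correspond to 1.90, 2.46 and 2.16 CPM and to 4.79, 4.65 and 5.34 CPM, so the groups were far apart. At 24 h DMSO libraries had 2.51, 2.62 and 2.68 CPM and NXP800 libraries 5.48, 6.52 and 4.88 CPM, again without overlap. The gene rose 2.27-fold at 6 h (log2 fold change 1.18, SE 0.15, adjusted p = 6.82e-06) and 2.16-fold at 24 h (1.11, SE 0.15, adjusted p = 8.73e-06). It was the only one of the 9 to rise over 2-fold at both times, and the responses at the 2 times were not told apart (difference -0.068, adjusted p = 0.851). Of the exon bases of *TP53INP1*, 3.99% are shared with *NDUFAF6* on the opposite strand. The mean level of *NDUFAF6* was 29.4 CPM with DMSO and 22.8 CPM with NXP800 at 6 h, and 26.4 and 21.8 CPM at 24 h. Its part in the *TP53INP1* counts was not tested.

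**Figure D2:**
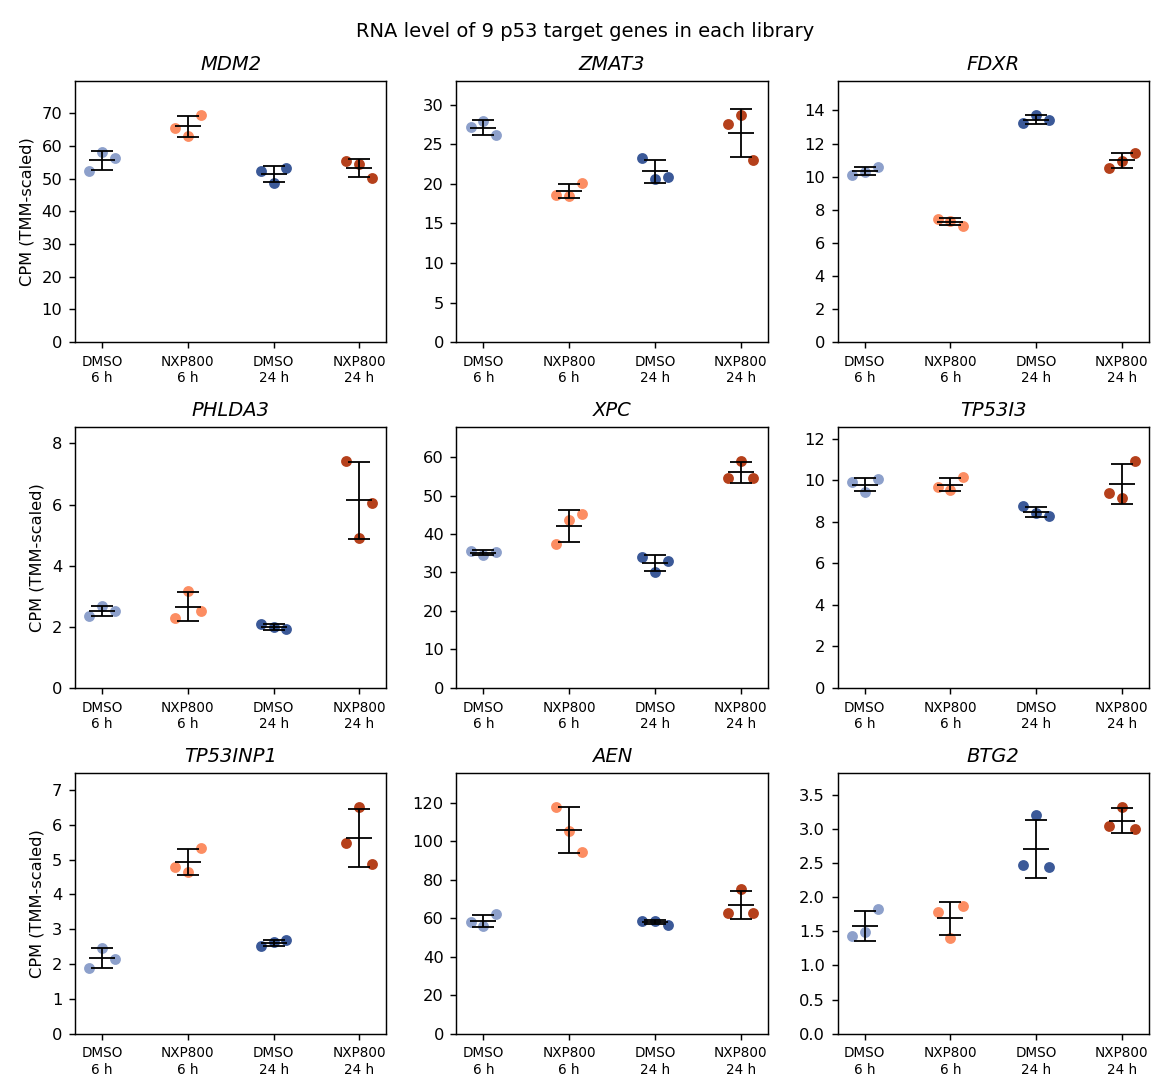
CPM of the 9 genes in each of the 12 libraries, with 1 panel per gene, points for libraries and bars for the mean and SD of each group of 3, on linear axes from 0. Treated points of *TP53INP1* lie above all controls at both times, those of *PHLDA3* only at 24 h, and those of *FDXR* below the controls at both times.

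The next pair of members acts on DNA or RNA ends and lesions. *XPC* (chr3:14145147-14178601) encodes the protein that recognises helix-distorting lesions for nucleotide excision repair. Its level at 6 h was 35.7, 34.6 and 35.3 CPM with DMSO and 37.5, 43.5 and 45.3 CPM with NXP800. The treated libraries were all above the controls but spread more widely. The log2 fold change of 0.26 (SE 0.077, adjusted p = 0.00992) lost its call without NXP800 6 h replicate 3, the highest library (0.20, adjusted p = 0.0574). At 24 h, DMSO libraries had 34.1, 30.0 and 33.0 CPM and NXP800 libraries 54.5, 59.0 and 54.4 CPM. The groups were then well apart, and the rise was 1.73-fold (log2 fold change 0.79, SE 0.077, adjusted p = 3.2e-07), larger than at 6 h by 0.53 (SE 0.11, adjusted p = 0.0021). Of the exon bases of *XPC*, 24.6% are shared with the opposite strand, with *XPC-AS1* and a gene without a symbol. *XPC-AS1* had 13 counts at most in any library, and the other gene was not examined. The part of this overlap in the *XPC* counts was not tested.

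*AEN* (chr15:88604683-88632281) encodes an exonuclease that degrades DNA and RNA during p53-dependent apoptosis. It was the most abundant of the 9 per length, at 9.85 CPM per kilobase of exon in DMSO at 6 h. At 6 h the DMSO libraries had 58.2, 56.0 and 62.2 CPM and the NXP800 libraries 118, 106 and 94.4 CPM. All treated libraries lay well above the controls, and the rise was 1.80-fold (log2 fold change 0.85, SE 0.085, adjusted p = 5.47e-07). At 24 h the values were 58.5, 58.5 and 56.7 CPM with DMSO and 63.0, 75.5 and 62.8 CPM with NXP800. The groups still did not overlap, but the gap was narrow and 1 treated library stood above the other 2. The log2 fold change of 0.21 (SE 0.086, adjusted p = 0.045) lost its call in 7 of the 12 fits that each left out 1 library, namely DMSO 6 h replicates 1 and 2, NXP800 6 h replicate 2, all 3 DMSO 24 h replicates and NXP800 24 h replicate 2. Over those fits the value ran from 0.15 to 0.22 and the adjusted p from 0.0527 to 0.172, the latter without NXP800 24 h replicate 2. The response at 24 h was smaller than at 6 h by 0.64 on the log2 scale (difference -0.64, SE 0.12, adjusted p = 0.00117).

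The 2 members that restrain growth signalling were at low levels. *PHLDA3* (chr1:201464278-201469188) encodes a small pleckstrin-homology protein that competes with AKT for membrane lipids. At 6 h it had 74, 85 and 83 counts with DMSO and 74, 104 and 82 with NXP800, or 2.34, 2.68 and 2.52 CPM against 2.27, 3.18 and 2.52 CPM. The groups overlapped, and the log2 fold change was 0.079 (95% interval -0.27 to 0.43, adjusted p = 0.734). At 24 h the counts were 63, 59 and 56 with DMSO and 225, 157 and 190 with NXP800, or 2.11, 1.98 and 1.92 CPM against 7.43, 4.92 and 6.06 CPM. The lowest treated library was over 2-fold above the highest control. This 3.05-fold rise (log2 fold change 1.61, SE 0.18, adjusted p = 1.04e-06) was the largest among the 9 genes at either time, and 5.73% of tested genes changed by more at 24 h. It exceeded the 6 h response by 1.53 (SE 0.25, adjusted p = 0.000356). Of the exon bases of *PHLDA3*, 18.4% are shared with a gene that GENCODE v44 places on the same strand. Whether the RefSeq genes used for counting include it was not checked, and its part in the *PHLDA3* counts was not tested.

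*BTG2* (chr1:203305519-203309602), an antiproliferative cofactor of mRNA deadenylation and an immediate response gene, had 1.43, 1.48 and 1.82 CPM with DMSO at 6 h and 1.78, 1.41 and 1.87 CPM with NXP800. At 24 h it had 2.48, 3.19 and 2.44 CPM with DMSO and 3.04, 3.32 and 3.00 CPM with NXP800. The groups overlapped at both times. With 45 to 106 counts per library its log2 fold changes were imprecise, 0.096 at 6 h (95% interval -0.27 to 0.46, adjusted p = 0.693) and 0.21 at 24 h (95% interval -0.12 to 0.54, adjusted p = 0.312). Changes within these intervals are not excluded.

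The 2 redox enzymes behaved unlike each other. *FDXR* (chr17:74862497-74872994), the mitochondrial ferredoxin reductase that feeds electrons to steroid synthesis and iron-sulphur cluster assembly, had 10.1, 10.3 and 10.6 CPM with DMSO at 6 h and 7.43, 7.34 and 7.03 CPM with NXP800. At 24 h it had 13.2, 13.7 and 13.4 CPM with DMSO and 10.5, 11.0 and 11.4 CPM with NXP800. Every treated library lay below every control at both times. It fell by 0.51 at 6 h on the log2 scale (SE 0.087, adjusted p = 0.000141) and by 0.29 at 24 h (SE 0.084, adjusted p = 0.00729), and it was the only one of the 9 lower at both. The 24 h call was lost with scaling by library size only (-0.20, adjusted p = 0.0603) and with no filter on low counts (-0.28, adjusted p = 0.0643).

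*TP53I3* (chr2:24077433-24084834), a quinone oxidoreductase linked to reactive oxygen species in p53-dependent death, had 9.92, 9.43 and 10.1 CPM with DMSO at 6 h and 9.70, 9.55 and 10.2 CPM with NXP800. The groups overlapped almost fully, and the log2 fold change was 0.0005 (95% interval -0.19 to 0.19, adjusted p = 0.997). At 24 h it had 8.77, 8.44 and 8.27 CPM with DMSO and 9.38, 9.16 and 10.9 CPM with NXP800. All treated libraries were above the controls by a small margin, yet the log2 fold change of 0.21 (SE 0.097) did not pass (adjusted p = 0.0775). It passed with the replicate number as a block (0.21, adjusted p = 0.0466), with library size only (0.30, adjusted p = 0.0174) and without NXP800 24 h replicate 2 (0.29, adjusted p = 0.0345), but not under the other alternatives. Without NXP800 24 h replicate 3, the highest library, the value was 0.13 (adjusted p = 0.306), and it did not pass with no filter on low counts (adjusted p = 0.175) or by the Wald test of DESeq2 (adjusted p = 0.122).

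*ZMAT3* (chr3:179017223-179072513), an RNA-binding zinc finger protein that acts on splicing and mRNA stability downstream of p53, was the only member called in opposite directions. At 6 h it had 27.2, 28.0 and 26.2 CPM with DMSO and 18.6, 18.4 and 20.1 CPM with NXP800, and all treated libraries were lower. At 24 h it had 23.3, 20.6 and 20.9 CPM with DMSO and 27.6, 28.7 and 23.0 CPM with NXP800, where the lowest treated library fell just within the control range. It fell by 0.51 at 6 h on the log2 scale (SE 0.088, adjusted p = 0.000152) and rose by 0.29 at 24 h (SE 0.088, adjusted p = 0.0103), a difference of 0.80 (SE 0.13, adjusted p = 0.000237). Of all tested genes, 338 (2.12%) were called at both times in opposite directions.

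The response at 24 h differed from that at 6 h for 4 of the 9 genes, higher for *PHLDA3*, *ZMAT3* and *XPC* and lower for *AEN*. Of all tested genes 25.8% passed this test, 12% in the higher and 13.8% in the lower direction. With the replicate number as a block, 6284 genes passed in place of 4129, and no member's call of the difference changed. With scaling by library size only, 59.6% of the calls were in the higher direction in place of 46.6%. The 4 members kept their directions there.

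Per length, the order of the 9 genes in DMSO at 6 h was *AEN* (9.85 CPM per kilobase), *XPC* (7.59), *MDM2* (6.69), *TP53I3* (4.24), *FDXR* (2.87), *ZMAT3* (2.40), *PHLDA3* (0.776), *BTG2* (0.572) and *TP53INP1* (0.385). In NXP800 at 24 h *XPC* stood first at 12.1 CPM per kilobase and *AEN* next at 11.2, and *PHLDA3* had gone from 0.618 with DMSO to 1.89. Lengths are of all annotated exons together, so neighbours in this order, such as *FDXR* and *ZMAT3*, may swap with the transcripts actually made.

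Other p53 targets outside the ISR, a list of 32 genes of which 28 could be tested, also moved in both directions. At 6 h 6 rose, 11 fell and 11 did not pass, with a median log2 fold change of -0.13. That is 60.7% called and 21.4% rising, where 52.8% of all tested genes were called and 25% rose. At 24 h 9 rose, 10 fell and 9 did not pass, with a median of -0.061. Here 67.9% were called and 32.1% rose, against 56% and 27.5% of all tested genes. The largest rise at 6 h was that of *PLK3*, a stress-responsive kinase, at 15.7 ± 2.20 CPM with DMSO and 37.1 ± 2.48 CPM with NXP800 (SD, n = 3; log2 fold change 1.24, adjusted p = 9.95e-08 by edgeR). It also carried the C/EBP-ATF element in its promoter window, 1 of 28 listed genes with a window to do so (3.57%, against 3.89% of all genes). *ANKRA2* and *POLK*, a translesion DNA polymerase, followed at 0.76 and 0.61. The falls at 6 h were led by the lysosomal fucosidase *FUCA1* (-0.99), the ceramidase *ACER2* (-0.92, at under 1 CPM) and the hydrolase *CMBL* (-0.84).

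At 24 h the largest rises of that list were *POLK* (0.59), *SUSD6* (0.56) and *NINJ1* (0.54), none over 2-fold, whereas 4 genes fell by over 2-fold. Of all tested genes 6.73% rose and 7.32% fell that far. *DDB2*, whose product finds ultraviolet lesions ahead of XPC in the same repair pathway, went from 12.1 ± 1.42 CPM to 4.01 ± 0.565 CPM (SD, n = 3; log2 fold change -1.59, SE 0.13, adjusted p = 3.69e-08 by edgeR), while *XPC* rose. *CMBL* (-1.41), *FUCA1* (-1.14) and *PIDD1* (-1.04, outside the naming rule and added for completeness once its value was seen) followed. Among genes often used as p53 reporters, *CCNG1* fell at both times (-0.24 and -0.60, adjusted p = 0.0136 and 5.4e-06), and the death effector *BAX* fell at 6 h (-0.22, adjusted p = 0.00697) and had -0.016 at 24 h (adjusted p = 0.835). *RRM2B*, a ribonucleotide reductase subunit, had 0.17 and -0.11 and did not pass at either time (adjusted p = 0.0719 and 0.268).

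p53 targets that are also known in the ISR were set beside them. All 9 of that list rose at both times, where 25% of all tested genes rose at 6 h and 27.5% at 24 h. Their median log2 fold change was 2.63 at 6 h, then 1.72 at 24 h. The list was written with these results known and is no independent evidence of its direction. *CDKN1A*, the cell cycle inhibitor p21, went from 41.1 ± 2.15 to 185 ± 17.5 CPM at 6 h and from 16.6 ± 2.20 to 54.6 ± 8.86 CPM at 24 h (SD, n = 3; log2 fold changes 2.17 and 1.72, adjusted p = 4.22e-10 and 5.28e-09 by edgeR). The smallest rise of that list, that of the death receptor gene *TNFRSF10B*, was 1.38 at 6 h and 0.66 at 24 h, and it is named here because its value was seen. At 6 h that smallest value was above the largest of the 9 genes outside the ISR, 1.18 for *TP53INP1*. At 24 h *PHLDA3* and *TP53INP1*, and *XPC* at 0.79, were above it. The sestrins, stress proteins that restrain mTORC1, show both lists in 1 family. *SESN2*, known in both pathways, rose by 4.40 and 3.19 on the log2 scale, while *SESN1*, a p53 target outside the ISR, had 5.82 ± 0.448 CPM with DMSO and 4.51 ± 0.166 CPM with NXP800 at 6 h (SD, n = 3; -0.37, adjusted p = 0.0178) and 0.17 at 24 h (adjusted p = 0.229). Of the 11 tested ISR reference genes, 10 (90.9%) rose at each time, against 25% and 27.5% of all tested genes. Their medians were 2.23 and 1.92.

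**Figure D3:**
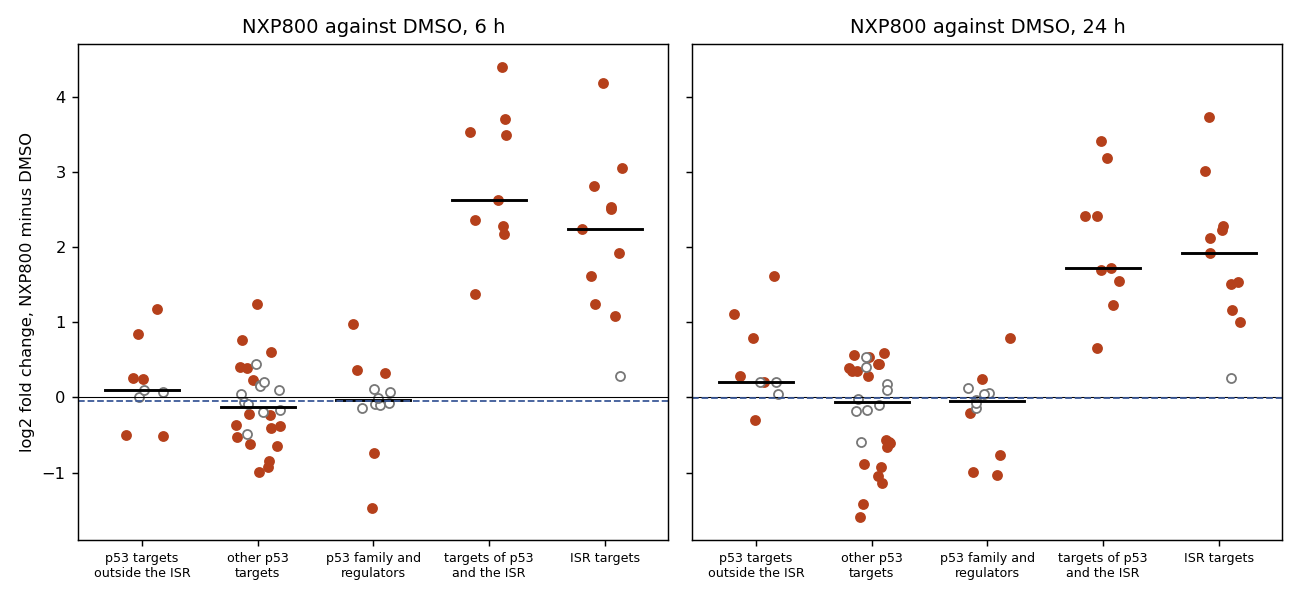
Log2 fold change of NXP800 against DMSO for each tested gene of 5 lists at 6 h and 24 h, with filled points where the adjusted p was below 0.05, a black bar at the list median and a dashed line at the median of all tested genes. The 9 genes and the other p53 targets outside the ISR scatter on both sides of 0, while all p53 targets known in the ISR lie above it.

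Family members and regulators of p53 complete the pathway. mRNA counts carry no measure of p53 protein or of its activity. Of the 14 listed family members and regulators, 12 could be tested, and 3 rose and 2 fell at 6 h, 2 rose and 4 fell at 24 h. That is 41.7% and 50% called, against 52.8% and 56% of all tested genes. *MDM4*, the p53-binding relative of *MDM2*, rose at both times, from 13.9 ± 2.39 to 27.2 ± 2.24 CPM and from 14.4 ± 1.29 to 24.9 ± 2.46 CPM (SD, n = 3; log2 fold changes 0.97 and 0.79, adjusted p = 3.94e-06 and 2.8e-05 by edgeR). The family member *TP73* fell at both times (-1.46 and -0.99, adjusted p = 0.000128 and 0.00168), from 2.94 ± 0.777 CPM with DMSO at 6 h (SD, n = 3), and its promoter windows also held a full p53 site. The checkpoint kinase gene *CHEK2* fell at both times (-0.74 and -1.03), *CHEK1* fell at 24 h (-0.77, adjusted p = 1.93e-08 by edgeR), as did *HIPK2* (-0.21, adjusted p = 0.032 by edgeR; also outside the rule), and the acetyltransferase genes *KAT5* at 6 h (0.36) and *EP300* at both times (0.33 and 0.25) rose.

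Genes whose levels followed the 3 most responsive members were sought by Pearson correlation of log2 CPM over the 12 libraries, as a description in which the 4 groups themselves make much of the likeness. *PHLDA3* was most like *SEC11C* (r = 0.961), *EPCAM* (0.959) and *ACOT4* (0.956), each with a log2 fold change of 0.13 or less at 6 h and between 0.81 and 0.86 at 24 h. *TP53INP1* was most like *APBB2* (0.984), *NBR2* (0.983) and *CYB561D1* (0.981), which changed by 1.05, 1.73 and 0.85 at 6 h and by 1.12, 1.87 and 0.75 at 24 h. *AEN* was most like *CD274*, *CLCF1* (both 0.985) and *SUPV3L1* (0.982), which all had larger values at 6 h (1.85, 2.13 and 0.56) than at 24 h (0.46, 0.75 and 0.20).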

How the data were processed

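Polyadenylated RNA of MNNG/HOS cells was made into libraries with a strand-specific kit. The authors deposited raw counts by gene symbol, made, per the labels and methods, with fastp 0.20.1, STAR 2.7.5a on hg38 and HTSeq 0.12.4 on RefSeq genes of GRCh38.p14, without normalization. The strand setting and the rule for reads shared by genes are not given in the sources used here. Entries that name no gene (8.02% to 12.2% of read pairs) were left out. All columns of per-sample values were used.

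Tests were run in R 4.3.3 using edgeR 4.0.16 (TMM scaling, filterByExpr, quasi-likelihood test) in 1 model of the 4 groups over 12 libraries, with Benjamini-Hochberg adjustment over all tested genes. NXP800 was compared with DMSO within each time, and the 2 responses with each other. Standard errors are the log2 fold change divided by the root of F, and 95% intervals are normal intervals from them. The procedure was tested on simulated data. Replicates differed by more than sampling noise (chi-square per degree of freedom 7.99 to 27.9), so none was treated as a library deposited more than once; this does not show that they were separate cultures. At these depths the spread between replicates sets the precision, except for genes of about 100 counts or fewer.

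The members and lists were chosen with earlier results of these data known. Text names the 9 members, the 3 largest called rises and falls of each other list (a subset of these is given for the lists of ISR genes), fixed genes (*MDM4*, *CDKN1A*, *SESN1*, *CCNG1*, *BAX*, *DDB2*, *RRM2B* and 1 that is not reported here) and, for the 3 members with the largest changes, the 3 genes most correlated. *TNFRSF10B*, *PIDD1* and *HIPK2* were named after their values were seen. Exon overlaps and lengths come from GENCODE v44, and promoter windows and gene positions from RefSeq.

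The main model did not use the replicate numbers, so its p-values are unpaired. Only the alternative with a replicate block took the numbers as pairing the libraries. With group means removed, same-numbered libraries correlated across genes with r of 0.159 to 0.329 (6 pairs), others with -0.268 to 0.058 (12 pairs), and the numbers in the labels are the only source of the pairing. Alternatives were DESeq2 1.42.0 (size factors and Wald test), library size only, no filter, at least 10 counts in every library, 1 time point alone, the replicate block, an adjusted p below 0.01, each library left out, and a half-site with 1 mismatch. The full p53 site and values relative to the median of all genes were added after seeing the data.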

Additional observations from a re-analysis of the deposited data

Results flagged for a closer look

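Of the 9 genes, 4 responded differently at 24 h and 6 h by edgeR's test of the difference of the 2 log2 fold changes (24 h minus 6 h), a test that 25.8% of all tested genes passed. The difference was 1.53 for *PHLDA3* (adjusted p = 0.000356), 0.80 for *ZMAT3* (adjusted p = 0.000237), 0.53 for *XPC* (adjusted p = 0.0021) and -0.64 for *AEN* (adjusted p = 0.00117). Each kept its direction and stayed below an adjusted p of 0.05 in all 12 fits that left out 1 library. The 6 h and 24 h libraries also differed in how many read pairs fell outside annotated genes, whose part in these values was not tested.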

How the results depend on the processing

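The calls of members at 6 h kept to 3 or 4 rises and 2 falls with each library left out. At 24 h they were 4 or 5 rises and 1 fall, and 3 rises were called at an adjusted p below 0.01, without *ZMAT3* and *AEN*. No fall was called at 24 h (0 in place of 1) with library size only or with no filter. The difference of responses was called for 6284 genes with the replicate block, 2236 at an adjusted p below 0.01 and 3200 to 4154 with a library left out, against 4129. Calls over all genes ranged from 7433 to 8653 at 6 h and from 8093 to 8982 at 24 h with a library left out. With the replicate block they numbered 9953 at 6 h and 10411 at 24 h, against 8435 and 8953. At an adjusted p below 0.01 they numbered 6482 and 7054. The block changed no member's call other than that of *TP53I3* at 24 h. Members with a promoter match were 4 with 1 mismatch and 1 with the full site, against 2.

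Directions turned only for values that never passed the test. They were *PHLDA3* at 6 h without NXP800 6 h replicate 2 (-0.069), *TP53I3* at 6 h without DMSO 6 h replicate 2 (-0.027), NXP800 6 h replicate 3 (-0.025) or DMSO 24 h replicate 2 (-0.00019), the difference for *TP53INP1* with library size only (0.0074) and without DMSO 6 h replicate 1 (0.018) or NXP800 24 h replicate 3 (0.025), and that for *BTG2* without DMSO 6 h replicate 3 (-0.0082) or NXP800 6 h replicate 2 (-0.0058). With a library left out these 4 values reached at most 0.18, 0.031, -0.19 and 0.25 on their other side. The cause was not tested.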
